A study of Oryza sativa Indica Group with 10 samples.

Results

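Rice genes for sugar transport, for sucrose synthesis and cleavage and for trehalose metabolism were followed across 5 groups of seedlings. A gene was taken where a symbol or synonym, in capitals and without a leading OS, was SWEET, SUT, MST, TMT, SUS, SPS, CIN, INV, TPP or TPS followed by digits and an optional letter. The platform annotation gave locus numbers, and their synonyms came from RefSeq's gene table. The rule matched 49 genes, of which 43 had a probe set paired with them alone, out of 17905 genes with such a probe set. SUS7, CIN5, CIN6, SWEET3A, SWEET13 and TPP8 had none and were not analysed here. Where a gene had several probe sets, the one with the highest mean signal across all 10 arrays stood for it.

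The 43 genes were 12 SWEET, 4 SUT, 2 MST, 6 SUS, 5 CIN, 5 SPS and 9 TPP matches, and TMT and TPS matched 0 genes. Of these, 3 carried a symbol that another enzyme family shares. LOC4330237 has the synonym TPPII, the name of tripeptidyl peptidase II, and LOC4341844 (SPS1) and LOC9267741 (SPS2) have symbols also used for solanesyl diphosphate synthases, whereas the sucrose-phosphate synthase genes carry the names SPS2F, SPS3F and SPS4F. The 3 were kept in the counts over 43 genes and stand apart in the account, which leaves 40 genes. SWEET6A and SWEET6B are synonyms of 1 locus. CIN2 and CIN3 are direct neighbours on chromosome 4.

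Sucrose made in leaves by sucrose-phosphate synthase (SPS) is carried in the phloem to sink organs. Its transport uses SUT proteins, which move sucrose together with protons, and SWEET proteins, which let sugars pass down their gradient. In the sink, cell wall invertases (CIN) and sucrose synthases (SUS) cleave sucrose, and monosaccharide transporters (MST) take up the resulting hexoses. Trehalose 6-phosphate is a low-abundance sugar phosphate that reports sucrose status in plants, and trehalose-phosphate phosphatases (TPP) remove it.

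All seedlings were Oryza sativa Indica Group, cultivar Pusa Basmati 1, grown in light at 28 °C on MS medium. The groups of 2 biological replicates each were OsbZIP48 over-expression (OE), the B4NU vector control, the pANDA vector control, and OsbZIP48 knock-down (KD) seedlings with a lethal phenotype (KD lethal) or of wild-type appearance (KD wild-type-like). All groups carry a transgene or a vector, and OsbZIP48 is a rice homologue of HY5, the Arabidopsis transcription factor that promotes seedling development in light. The labels give no promoter and no number of independent lines, an age of 10 days where the series' design text gives 7, and a tissue label of whole seedling beside an extraction protocol that speaks of roots. The labels do not pair vectors with transgenes: OE was set against B4NU, and both KD groups against pANDA, a vector made for RNA interference. The tables used here name no probe set for OsbZIP48, so the labels were not checked through the targeted gene.

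Signals are log2 probe set values from 1-colour Affymetrix arrays, and a probe's level is compared only between arrays, never with another gene's probe. The B4NU and OE arrays and the pANDA and KD arrays appear to have been normalized as 2 separate sets, so levels set across them carry that limit. Values within 0.5 of an array's lowest value are called the floor, and 65.7 to 68.9% of probe sets lay there. The 3′ minus 5′ or middle signal of 3 control transcripts, a sign of RNA quality, was -0.16 on OE replicate 1 and 0.37 on KD lethal replicate 2, and 0.91 to 1.85 on the other 8 arrays. The OE replicates correlated least with each other (r = 0.950 across probe sets, which are not independent replicates). In the pANDA group 0 of 6 leaf markers and 1 of 8 root markers were at the floor, in the B4NU group 0 and 2, and 6 of 7 seed storage genes were there in every group.

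Of the 43 genes, 11 were at the floor in all 5 groups: SWEET5, SWEET12, SWEET16, SUT5, MST5, SUS3, CIN3, SPS2F, TPP3, TPP6 and TPP10. For these no level above background was measured on the arrays. Another 27 were at the floor in no group. Over the 4 comparisons, 17 genes passed limma's test at an adjusted p under 0.05 at least once and 26 did not. The share of all genes that passed at least once was not counted. In KD lethal against pANDA alone, 26.2% of all 17905 genes were called. The plot of the differences by gene shows where the calls fell.

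**Figure D1:**
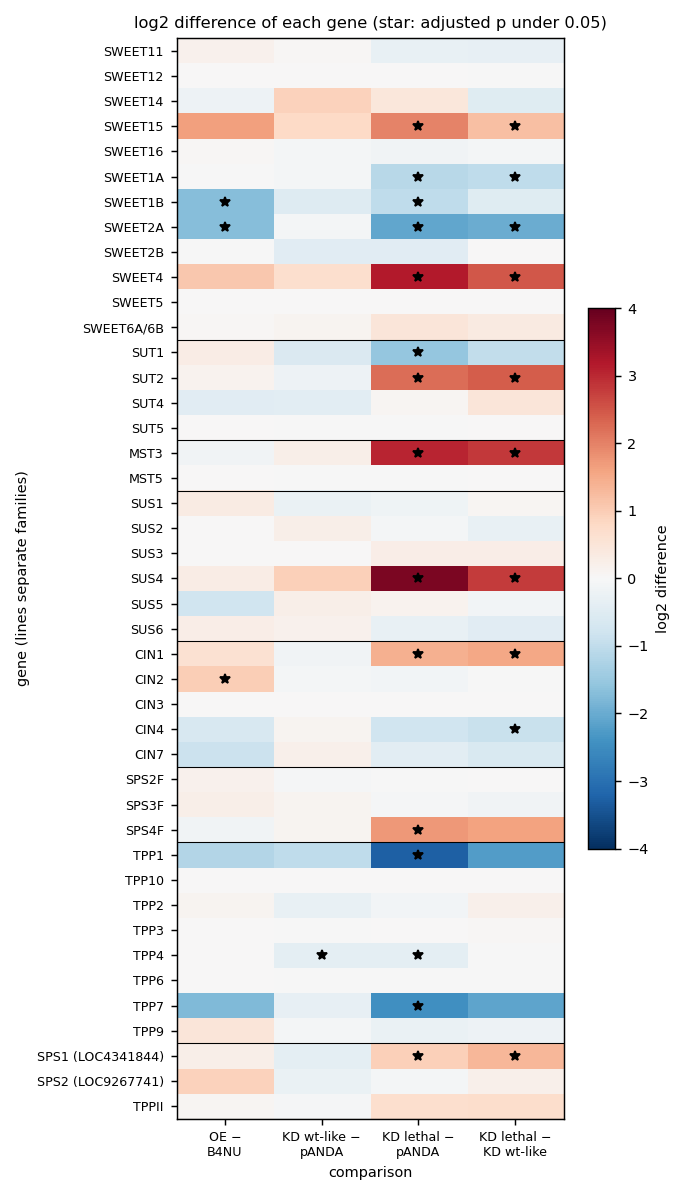
Log2 difference (colour) of each of the 43 genes (rows, lines separating the SWEET, SUT, MST, SUS, CIN, SPS and TPP families and the 3 genes of shared symbol) in 4 comparisons (columns), with stars at adjusted p under 0.05. Stars number 3 in OE against B4NU, 15 and 1 in the lethal and wild-type-like KD groups against pANDA, and 10 in KD lethal against KD wild-type-like.

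The KD lethal group was set against pANDA, a comparison that shows which of these transcripts differ when knock-down is lethal. The largest rises among the 43 genes were in 3 of them: the sucrose synthase gene SUS4 was 13.5-fold higher, the hexose transporter gene SWEET4 8.97-fold and the monosaccharide transporter gene MST3 8.35-fold. The trehalose-phosphate phosphatase gene TPP1 was 9.59-fold lower and the transporter gene SWEET2A 4.18-fold lower. In all, 8 of 43 genes rose and 7 fell, or 34.9%, beside 26.2% called among all 17905 genes (14.5% higher and 11.7% lower) and 12.2% of all probe sets (6.83% higher and 5.4% lower). The median difference was -0.01 over the 43 genes and 0.02 over all genes (log2). Of the 40 genes without the shared symbols, 7 rose and 7 fell.

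Of the genes for sucrose-cleaving enzymes, 1 of 6 sucrose synthase genes and 1 of 5 invertase genes rose, and 0 fell. SUS4 (LOC4332788), which like the other sucrose synthases splits sucrose into UDP-glucose and fructose, read 9.56 and 9.70 on the KD lethal arrays and 6.02 and 5.75 on the pANDA arrays (log2 signal). Both lethal arrays lay above every other array. The rise was 3.75 ± 0.26 (log2, SE; limma adjusted p = 0.000929). The other 5 sucrose synthase genes were not called, and their differences ran from -0.29 (SUS6) to 0.25 (SUS3, at the floor). SUS1 stood at 10.24 ± 0.46 in KD lethal and 10.41 ± 0.06 in pANDA (SD, n = 2), and SUS2 at 9.03 ± 0.29 and 9.10 ± 0.01.

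Among the cell wall invertase genes, CIN1 (LOC4329561) read 7.19 and 7.46 in KD lethal and 5.84 and 6.01 in pANDA. Its groups did not overlap, as in the uncalled CIN4, and it rose by 1.41 ± 0.21 (limma adjusted p = 0.0116). CIN4 had a difference of -0.78 ± 0.19 (adjusted p = 0.0602), and CIN7, whose lethal arrays read 5.07 and 3.83, one of -0.41 ± 0.47. CIN2, also known as GIF1 and needed for grain filling, was at the floor in KD lethal (2.89 and 2.92) and read 2.95 and 3.09 in pANDA. On the synthesis side SPS4F (LOC4345220) read 7.01 and 7.07 against 5.22 and 5.39, a 3.32-fold rise (adjusted p = 0.0388), whereas SPS3F was at 5.56 in KD lethal and 5.60 in pANDA.

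Of the 12 SWEET genes, 2 rose and 3 fell. SWEET4 (LOC4329093), a hexose transporter gene known from grain filling, read 10.88 and 11.14 in KD lethal and 7.81 and 7.88 in pANDA, a rise of 3.16 ± 0.19 (adjusted p = 0.000596). SWEET15 (LOC4329464), a sucrose transporter gene also known from the developing grain, read 5.04 and 4.67 against 3.12 and 2.64 and rose by 1.98 ± 0.27 (adjusted p = 0.00842). In the opposite direction, SWEET2A (LOC4326868) read 4.96 and 4.43 against 6.64 and 6.87 and fell by 2.06 ± 0.23 (adjusted p = 0.00457). In none of the 3 did the lethal and pANDA arrays overlap, nor did they in the uncalled SWEET11, so this adds nothing to the calls. SWEET1A fell by 1.10 ± 0.19 and SWEET1B fell by 1.02 ± 0.22 (adjusted p = 0.0188 and 0.0378). SWEET1A's other probe set had a mean level of 2.46 and a difference of 0.01, and the mean of both probe sets fell by 0.55. SWEET11 and SWEET14, known as susceptibility genes for bacterial blight, were not called, at -0.28 ± 0.28 and 0.46 ± 0.31, and SWEET14's other probe set pointed the opposite way (-0.68, not called).

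MST3 (LOC4342198), which encodes a proton-coupled monosaccharide transporter, read 10.06 and 10.63 in KD lethal and 7.12 and 7.44 in pANDA. It rose by 3.06 ± 0.26 (adjusted p = 0.00187). The sucrose transporter genes SUT1 and SUT2 moved in opposite directions. SUT2 (LOC9266530), whose protein sits in the vacuolar membrane, read 8.43 and 8.05 against 6.06 and 5.94 and rose by 2.24 ± 0.35 (adjusted p = 0.0142). Its other, dimmer probe set was not called (-0.13), and the mean of both probe sets rose by 1.05. SUT1 (LOC4331775), the plasma membrane transporter of the phloem, read 3.08 and 3.83 against 5.06 and 4.97 and fell by 1.56 ± 0.32 (adjusted p = 0.0333). SUT4 did not pass (0.07 ± 0.31).

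Of the 8 trehalose-phosphate phosphatase genes, 3 fell and 5 were not called. TPP1 (LOC4330221) read 6.40 and 5.62 in KD lethal and 9.24 and 9.31 in pANDA, and fell by 3.26 ± 0.62 (adjusted p = 0.0257). TPP7 (LOC4346885), known for tolerance of germination under water, read 6.62 and 6.59 against 9.12 and 8.98 and fell by 2.44 ± 0.54 (adjusted p = 0.0442). Both lethal arrays were below both pANDA arrays for each gene, as for the uncalled TPP9. The probe sets of TPP7, TPP6, SWEET11 and SWEET14 are of a type that can match several transcripts, and TPP7's other probe set lay at the floor. The mean of TPP7's probe sets fell by 1.22. TPP4 was called with a difference of -0.38 ± 0.03, but KD lethal was at the floor (2.56) and pANDA just at its edge (2.94), so no fold is given. TPP9 had a difference of -0.26 ± 0.20. Of the 3 genes of shared symbol, LOC4341844 rose by 0.95 ± 0.16 (adjusted p = 0.0172) and the others were not called.

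Markers of organs and of water loss moved in the same comparison. All 6 leaf and photosynthesis markers fell, with a mean level of 7.19 to 7.29 on the KD lethal arrays and 10.11 to 10.15 on the pANDA arrays. Of 8 root markers, 6 fell, the mean level was 3.24 to 3.36 against 6.70, and 4 were at the floor in KD lethal, where 1 was in pANDA. Of 6 dehydration genes, 4 rose (8.18 to 8.59 against 4.10 to 4.12). Their part in the differences of the sugar genes was not tested. In whole seedlings, fewer cells of a type and less RNA per cell cannot be told apart.

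The calls differed in how far they depended on single arrays. SUS4, SWEET4, MST3, SWEET15, SWEET2A and TPP4 passed with each of the 10 arrays left out in turn, with adjusted p up to 0.0435 for SWEET15. The other 9 did not. With only the 4 arrays of both groups fitted, MST3, SWEET15 and SWEET2A did not pass in limma (adjusted p = 0.0735, 0.110 and 0.0992). SUS4, SWEET4, TPP4, SPS4F, TPP7 and LOC4341844 passed in that fit. Leaving out an array of another group keeps the difference itself and changes only the shared spread and its degrees of freedom. For TPP7 the SD (n = 2) was 1.23 in OE, 0.10 in pANDA and 0.02 in KD lethal. CIN1 lost its call without pANDA replicate 1 (adjusted p = 0.0652) or KD lethal replicate 2 (0.0529). SUT2 lost it without either pANDA array or KD lethal replicate 1 (0.0597 to 0.0761). LOC4341844 lost it without either pANDA or either KD lethal array (up to 0.0831), and SWEET1A without either pANDA or either B4NU array (up to 0.0915). SPS4F, SWEET1B, TPP1 and TPP7 lost theirs without any single array of B4NU, pANDA, KD wild-type-like or KD lethal, with adjusted p up to 0.163, 0.174, 0.115 and 0.173. The same held for SUT1 (up to 0.140), except that it passed without KD lethal replicate 2. The count of called genes was 7 without pANDA replicate 1 and 9 without pANDA replicate 2, KD lethal replicate 1 or either B4NU array. Without OE replicate 1 and KD lethal replicate 2 together, more of these genes were called. The share of all genes called in that run is not given here.

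**Figure D2:**
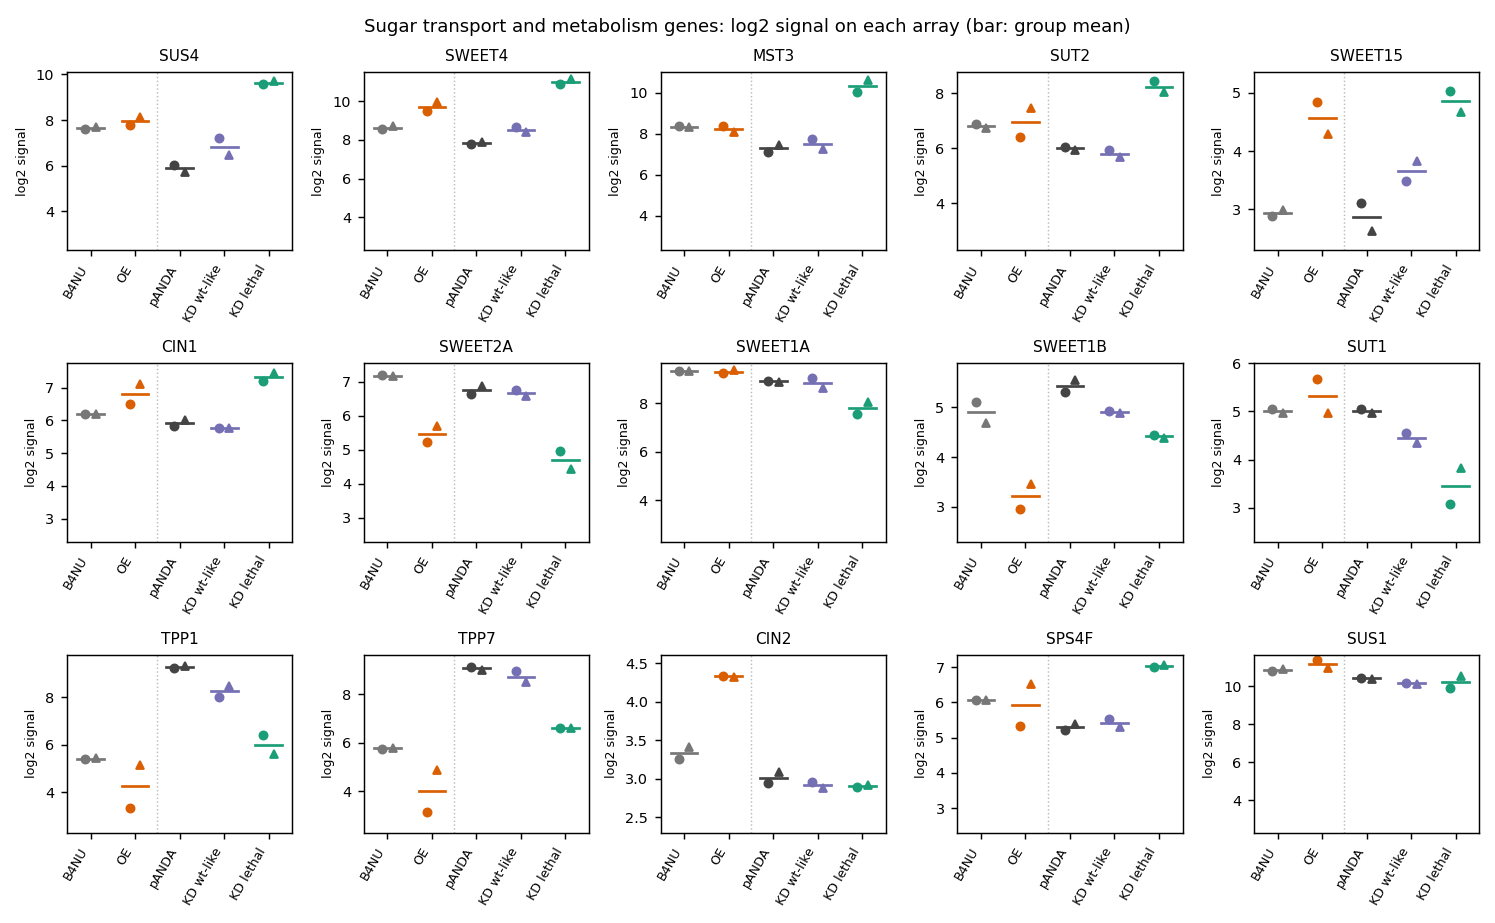
Log2 signal (y axis) of 15 genes on each array by group (x axis), circles for replicate 1, triangles for replicate 2 and bars for the group mean of n = 2. The dotted line separates the 2 sets of arrays, and the KD lethal arrays of SUS4 sit at 9.56 and 9.70, above all other arrays.

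Lethal and wild-type-like knock-down seedlings were compared directly, which asks what differs with the phenotype among seedlings labelled knock-down. The labels give no lines and the knock-down was not measured, so phenotype, line and degree of knock-down cannot be told apart. Of 43 genes, 7 were higher and 3 lower in KD lethal, or 23.3%, a share close to the 23.8% of all genes (13.6% higher and 10.2% lower) and above the 11.2% of all probe sets (6.48% higher and 4.72% lower). MST3 was 7.15-fold higher, SUS4 6.92-fold and SWEET4 5.58-fold. The other 5 sucrose synthase genes were not called, 1 invertase gene rose (CIN1) and 1 fell (CIN4), and 2 SWEET genes rose and 2 fell. These arrays enter the comparison with pANDA too, so it is no independent repeat.

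SUS4 read 7.20 and 6.48 in KD wild-type-like, below both lethal arrays, and the difference was 2.79 ± 0.26 (adjusted p = 0.0026). SWEET4 read 8.66 and 8.40 and differed by 2.48 ± 0.19 (adjusted p = 0.00135). MST3 read 7.75 and 7.27 and differed by 2.84 ± 0.26 (adjusted p = 0.0026). SUT2, at 5.95 and 5.67 in KD wild-type-like, was higher in KD lethal by 2.43 ± 0.35 (adjusted p = 0.0115), and CIN1, at 5.77 on both arrays, by 1.56 ± 0.21 (adjusted p = 0.00883). All 5 genes had lethal arrays above the wild-type-like ones, as did the uncalled SPS4F, so this adds nothing to their calls.

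SWEET2A, at 6.76 and 6.59 in KD wild-type-like seedlings, fell by 1.98 ± 0.23 in the lethal seedlings (adjusted p = 0.00564), and SWEET1A fell by 1.02 ± 0.19 (adjusted p = 0.0262). SWEET15 rose by 1.20 ± 0.27 (adjusted p = 0.0485) and CIN4 fell by 0.89 ± 0.19 (adjusted p = 0.0430). LOC4341844 rose by 1.34 ± 0.16. TPP1 and TPP7, at 8.25 ± 0.32 and 8.72 ± 0.31 in KD wild-type-like (SD, n = 2), had differences of -2.25 ± 0.62 and -2.11 ± 0.54 that did not pass (adjusted p = 0.0907 and 0.0753). SPS4F had a difference of 1.62 ± 0.37 (adjusted p = 0.0515).

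Here SUS4, SWEET4, MST3, CIN1, SWEET2A and LOC4341844 passed with each array left out in turn. SUT2 lost its call without KD wild-type-like replicate 2 (adjusted p = 0.0581). SWEET1A lost it without either B4NU or pANDA array, KD wild-type-like replicate 1 or KD lethal replicate 1 (up to 0.0804). SWEET15 passed only without an OE array and CIN4 only without a KD wild-type-like array, with adjusted p up to 0.173 and 0.152 otherwise. Without OE replicate 1 and KD lethal replicate 2 more genes were called, a count not set beside the share of all genes in that run. With only the 4 arrays of both groups fitted, 0 of 43 genes passed in limma, where 12 had an unadjusted p under 0.05. The share of all probe sets at that unadjusted threshold was not counted, so the 12 are not read as a result. The 6 leaf markers were lower and 6 of 8 root markers lower and 1 higher in KD lethal here as well, and 4 of 6 dehydration genes higher.

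The KD wild-type-like group was set against pANDA, a comparison of seedlings labelled knock-down, but without the visible phenotype, with a vector control. The knock-down itself was not measured, so few calls do not show that it leaves these genes unchanged. Of 43 genes, 1 was called (2.33%, beside 0.363% of all genes and 0.243% of all probe sets): TPP4, which fell by 0.38 ± 0.03 (adjusted p = 0.0166) between levels of 2.94 and 2.56 at and near the floor. It lost its call without either B4NU array (adjusted p = 0.0733). The other differences ran from -1.02 to 0.96. SUS4 had the highest, 0.96 ± 0.26 (adjusted p = 0.543), with its wild-type-like arrays above both pANDA arrays, and TPP1 the lowest, -1.02 ± 0.62, at 8.03 and 8.48 against 9.24 and 9.31. SWEET14 read 6.13 on both wild-type-like arrays and 5.52 and 4.87 in pANDA, a difference of 0.93 ± 0.31 that did not pass (adjusted p = 0.754). The leaf and root markers had 0 calls in this comparison (limma). Of the 6 dehydration genes 1 was called, as higher, and all 6 had positive differences. Their mean level was 6.56 to 6.69 on the wild-type-like arrays and 4.10 to 4.12 on the pANDA arrays.

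The OE group was set against B4NU, a comparison that shows which of these genes differ under over-expression. The invertase gene CIN2 was 2.00-fold higher, SWEET2A 3.27-fold lower and SWEET1B 3.23-fold lower. These were the 3 calls of 43 (6.98%, beside 2.88% of all genes, with 0.542% higher and 2.33% lower, and 1.4% of all probe sets). The median difference was 0.02 over the 43 genes and -0.05 over all genes (log2). No SUT, MST, SUS, SPS or TPP gene was called.

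CIN2 (LOC4335790) read 4.34 and 4.33 in OE and 3.26 and 3.41 in B4NU, and no other array of the series exceeded 3.41. It rose by 1.00 ± 0.07 (adjusted p = 0.00494). The neighbouring CIN3 was at the floor on all arrays. SWEET2A read 5.24 and 5.71 in OE and 7.21 and 7.16 in B4NU, and fell by 1.71 ± 0.23 (adjusted p = 0.0414). SWEET1B (LOC4338851), of the SWEET1 type that transports glucose, read 2.96 and 3.47 against 5.12 and 4.69 and fell by 1.69 ± 0.22 (adjusted p = 0.0344). The OE and B4NU arrays of the 3 genes did not overlap. This also held for uncalled genes such as CIN4, SUS5 and TPP9, so it adds nothing to the calls.

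Differences of over 1 (log2) did not pass for 4 other genes. SWEET15 read 4.84 and 4.30 against 2.88 and 2.98 (1.64 ± 0.27, adjusted p = 0.0698), and SWEET4 read 9.47 and 9.95 against 8.55 and 8.72 (1.07 ± 0.19, adjusted p = 0.0854). TPP7 read 3.14 and 4.88 against 5.74 and 5.79, and TPP1 3.35 and 5.17 against 5.39 and 5.46. Their differences were -1.76 ± 0.54 and -1.17 ± 0.62 (adjusted p = 0.348 and 0.644). In both TPP genes OE replicate 1, the array with the low 3′ to 5′ difference, was the lower one, and its part in these values was not tested.

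CIN2 passed with each array left out in turn, but not with quantile normalization over all arrays (limma adjusted p = 0.0643). A filter on low values left CIN2 out. SWEET2A lost its call without either B4NU, pANDA or KD wild-type-like array or without OE replicate 1 (up to 0.154), and SWEET1B without any single array outside OE (up to 0.103). The number of calls changed with the array left out and fell without either B4NU, pANDA or KD wild-type-like array. It rose without OE replicate 2, and without OE replicate 1 and KD lethal replicate 2 together. The share of all probe sets called rose in both of these runs too, so neither rise is particular to these genes. With only the 4 arrays of both groups fitted, 0 genes passed in limma, where 6 had an unadjusted p under 0.05. How many of all probe sets reached that unadjusted threshold was not counted, so the 6 are not read as a result. In OE, 3 of 6 dehydration genes were higher (mean level 7.39 to 8.48, against 4.49 to 4.67) and 2 of 6 leaf markers lower (9.64 to 9.66, against 10.08 to 10.17). Of 8 root markers 1 was lower.

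A difference in effect between over-expression and lethal knock-down was tested as the difference between both effects, each against its own vector. Of 43 genes, 5 passed, 2 with a positive and 3 with a negative difference (11.6%, beside 11.7% of all genes, of which 4.56% positive and 7.18% negative, and 5.55% of all probe sets, of which 2.1% positive and 3.45% negative). SUS4, MST3 and SWEET4 rose in KD lethal, where their OE differences were 0.31 ± 0.26, -0.13 ± 0.26 and 1.07 ± 0.19. The effects differed by -3.44 ± 0.37, -3.19 ± 0.37 and -2.09 ± 0.27 (OE minus KD lethal; adjusted p = 0.0081, 0.0109 and 0.0143). CIN2 was at the floor in KD lethal, where only an upper limit was measured, and the fitted difference of its effects was 1.11 ± 0.09 (adjusted p = 0.0040). TPP4 was at the floor in every group but pANDA, so that its fitted 0.40 ± 0.04 is not a measured difference of effects. SWEET4 lost this call without B4NU replicate 2 (adjusted p = 0.0598). The count was higher without OE replicate 1, OE replicate 2 or KD lethal replicate 2. It was also higher without OE replicate 1 and KD lethal replicate 2 together. The share of all genes called in these runs is not given here.

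SWEET2A and SWEET1B were the 2 genes called in both OE and KD lethal, each against its vector. The share of all genes called in both was not counted, so the overlap is not read as particular to these genes. Both genes were lower in each: SWEET2A fell by 1.71 in OE and fell by 2.06 in KD lethal, and SWEET1B fell by 1.69 and fell by 1.02. The test of the difference between the effects did not pass for either (0.35 ± 0.33 and -0.67 ± 0.30, adjusted p = 0.681 and 0.417), which does not show that they are equal.

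**Figure D3:**
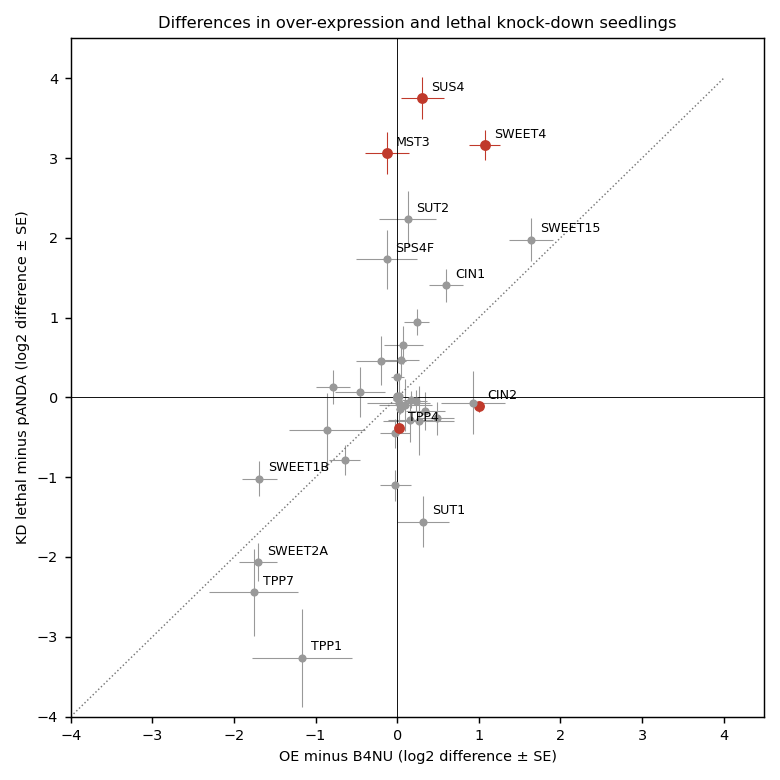
Log2 difference ± SE of each of the 43 genes in OE against B4NU (x axis) and in KD lethal against pANDA (y axis), with a dotted line of equal differences. Red points are the 5 genes whose effects differ at adjusted p under 0.05, and SWEET2A and SWEET1B lie at lower values on both axes.

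The vector controls lay at different levels for several of these genes, a difference that was not tested, and vector and array set cannot be told apart. TPP1 stood at 9.27 ± 0.05 in pANDA and 5.43 ± 0.05 in B4NU, and TPP7 at 9.05 ± 0.10 and 5.77 ± 0.04 (log2 signal, SD, n = 2). TPP1 and TPP7 in KD lethal (6.01 and 6.61) thus lay nearer to B4NU than to pANDA. SUS4 stood at 5.88 ± 0.19 in pANDA and 7.64 ± 0.08 in B4NU, with KD lethal above both. SWEET2A was at 6.76 ± 0.16 and 7.18 ± 0.03, and both OE and KD lethal arrays lay below every array of both vectors.

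Other genes of sugar phosphorylation, starch synthesis and breakdown and sugar signalling were taken from a list of 96 symbols, of which 24 genes were found. In KD lethal against pANDA 6 rose and 4 fell (41.7%, median 0.14), beside 26.2% of all genes, and against KD wild-type-like 5 rose and 5 fell, beside 23.8%. In the same list 0 were called in the OE and KD wild-type-like comparisons with their vectors (limma). The starch synthase gene SSI (LOC9269493) read 7.55 and 8.08 in KD lethal and 4.07 and 4.20 in pANDA and rose by 3.68 ± 0.25 (adjusted p = 0.000914). AMY1A (LOC4330832), an alpha-amylase gene of starch breakdown, read 11.84 and 11.60 against 8.77 and 8.86 and rose by 2.91 ± 0.27 (adjusted p = 0.00241). In both genes the lethal arrays lay above the pANDA arrays, as in uncalled genes of the same list, so this adds nothing to the calls.

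Another alpha-amylase gene, AMY3E (LOC4345812), read 5.67 and 5.81 in pANDA and lay at the floor in KD lethal, at least 6.96-fold lower (adjusted p = 0.000394). CFBP1 (LOC4325071), the cytosolic fructose-1,6-bisphosphatase gene of sucrose synthesis, read 3.01 and 3.83 against 5.94 and 5.81 and fell by 2.46 ± 0.31 (adjusted p = 0.00662). MYBS1 (LOC4323963), a MYB regulator of alpha-amylase genes under sugar starvation, fell by 1.46 ± 0.27. The hexokinase genes LOC4326776 and LOC4338010, which phosphorylate hexoses, rose by 1.78 ± 0.32 and 2.26 ± 0.40, and the fructokinase gene FRK1 (LOC4324962) rose by 0.83 ± 0.13. The alpha-amylase genes AMY1A and AMY3E thus moved in opposite directions in the same seedlings. The probe sets of AMY3E and LOC4326776 are of the type that can match several transcripts. AMY1A stood at 11.21 in B4NU and 8.81 in pANDA, so its KD lethal level (11.72) lay nearer to B4NU than to pANDA.

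**Figure D4:**
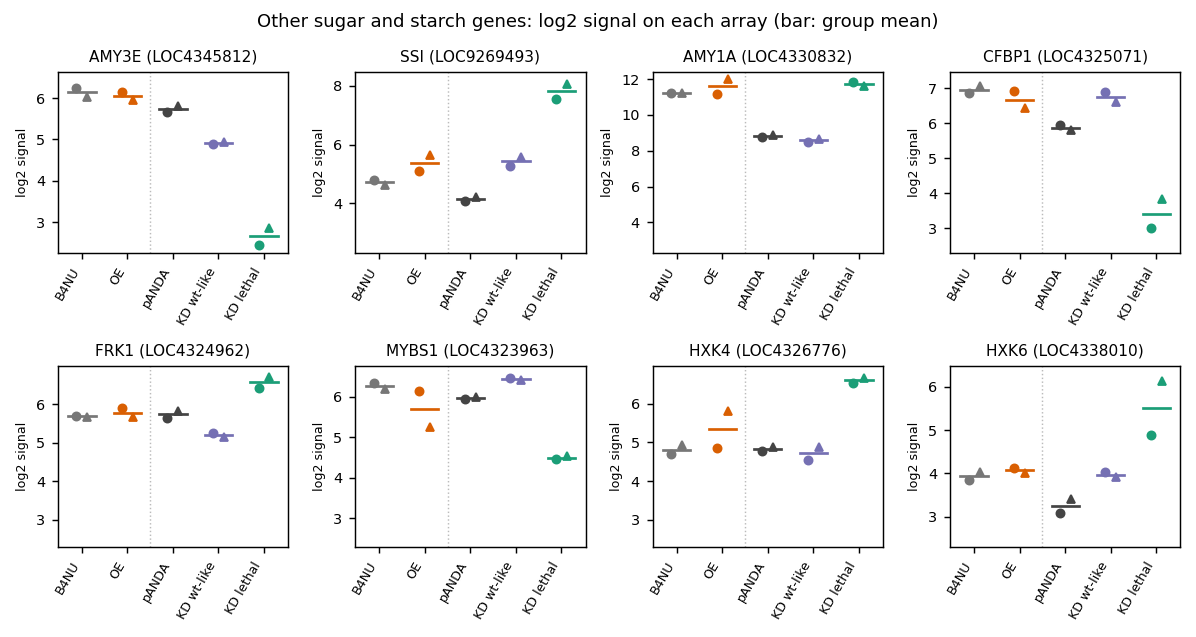
Log2 signal (y axis) of 8 further sugar and starch genes on each array by group (x axis), circles for replicate 1, triangles for replicate 2 and bars for the group mean of n = 2. SSI reaches 7.55 and 8.08 in KD lethal, and AMY3E reads 2.44 and 2.86 there, at the floor.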

How the data were processed

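RNA of 10 seedling samples was measured on 1-colour Affymetrix rice arrays. The authors deposited log2 probe set values, 1 per array, made with GCOS and Affymetrix Expression Console 1.4.1.46 per the submitters' processing notes. The sources used here name no normalization method. The log2 scale was inferred from the range. Arrays of B4NU and OE shared 16912 or more identical values with each other, as did those of pANDA and KD, and 0 across, so 2 separately normalized sets were assumed. The number of arrays limits the precision.

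After 123 controls were left out, 57258 probe sets were fitted with limma 3.58.1 in R 4.3.3 (all 10 arrays, 1 coefficient per group, eBayes without trend, 5 residual degrees of freedom). Tests were two-sided, with Benjamini-Hochberg adjustment over all probe sets and calls at adjusted p under 0.05. The spread is shared over groups, so OE calls depend on other groups' arrays. Of the probe sets, 22436 had 1 gene, 95 several and 34727 none. All 17905 genes were found in the RefSeq table of ASM3414082v1, used for names and neighbours. A fold against a group at the floor is a lower bound, against the floor's upper edge. The fit was tested on simulated data.

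The members and lists were chosen with earlier results of these data known. Any member may be named, and of the other pathway genes the 8 with the smallest adjusted p among those called in OE or KD lethal against their vector. Alternatives covered the arrays fitted, variance trend, scaling, a low-value filter, probe sets per gene, a fold minimum, a replicate block and leaving out arrays. Nothing in the labels says that equal replicate numbers mark a shared origin. The p-values set each difference against the spread between samples within groups, shared over the groups. Whether these samples come from independent lines is not stated. No sequences are shown.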

Additional observations from a re-analysis of the deposited data

Results flagged for a closer look

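The effect of over-expression and that of lethal knock-down, each against its own vector, differed by limma's test of the difference for 5 genes (OE minus KD lethal, log2). The values were -3.44 for SUS4, -3.19 for MST3, -2.09 for SWEET4, 1.11 for CIN2 and 0.40 for TPP4. CIN2 was at the floor in KD lethal and TPP4 in every group but pANDA, so both are fitted values that rest on signals not above the floor.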

How the results depend on the processing

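No called gene changed direction under any alternative run. Counts of called genes moved more than 1.5 times as follows. In OE against B4NU, 3 became 0 with only the 4 arrays compared (6 at an unadjusted p under 0.05). The count became 5 with quantile normalization over all arrays and 1 with a replicate block. In these 3 runs 0.0297%, 1.76% and 0.739% of all probe sets were called, beside 1.4% in the main fit. In KD lethal against pANDA, 15 became 6 with only those 4 arrays. In KD wild-type-like, 1 became 0 with only those 4 arrays (10 at an unadjusted p under 0.05), with the filter on low values (4), which left TPP4 out, and with a 2-fold minimum (0). Between the KD groups, 10 became 0 with only 4 arrays (12) and 18 without the 2 arrays that stood apart, and for the difference between the OE and KD lethal effects 5 became 14 without them. With 1 array left out the counts ran from 1 to 11 (OE), 7 to 15 (KD lethal), 0 to 2 (KD wild-type-like), 7 to 12 (between the KD groups) and 4 to 13 (difference of the effects). With only the 4 arrays, the calls in KD lethal against pANDA were lost for CIN1, MST3, SUT1, SUT2, SWEET15, SWEET1A, SWEET1B, SWEET2A and TPP1 (adjusted p 0.0599 to 0.201), and in OE for CIN2 (0.261), SWEET1B and SWEET2A. With the replicate block they were lost for SPS4F, SUT1, SWEET1B, TPP1 and TPP7 (0.0501 to 0.0825), between the KD groups for CIN4, SWEET15 and SWEET1A, and in OE for SWEET1B and SWEET2A. Quantile normalization ended the calls of SUT1 in KD lethal (0.101), CIN4 and SWEET15 between the KD groups (0.103 and 0.218), and CIN2 in OE (0.0643) and for the difference of the effects (0.0559). Without the 2 arrays that stood apart, SWEET1B lost its calls in OE and KD lethal, and CIN4 and SWEET15 theirs between the KD groups. A 2-fold minimum ended the calls of TPP4, LOC4341844 in KD lethal, CIN4 between the KD groups and CIN2 in OE. With the replicate block, 10 genes were called in KD lethal, 1 in KD wild-type-like, 7 between the KD groups and 5 for the difference of the effects. Deviations of equally numbered arrays correlated between -0.57 and 0.31, so the numbers were not taken as pairs. The other alternatives kept each count within 1.5 times. The filter on low values also left CIN2 out, and in OE it called 4 genes, of which 2 were among the main calls. Genes at the floor have only an upper limit on these arrays.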
